A study of Mus musculus with 6 samples.

Results

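The genes for 9 transcription factors of blood stem and progenitor cells were examined in sorted cells of the mouse embryonic aorta: *Myb*, *Myc*, *Mycn*, *Mecom*, *Meis1*, *Hlf*, *Hhex*, *Bcl11a* and *Prdm16*. They were chosen by name from the 24062 genes counted in each library, as regulators of such cells that lie outside the heptad (*Gata2*, *Runx1*, *Tal1*, *Lyl1*, *Lmo2*, *Erg* and *Fli1*). RNA was sequenced from 6 libraries of CD31+ckit+ cells of the aorta-gonad-mesonephros region (AGM) at embryonic day 10.5, from C57BL/6JOlaHsd mice of the genotype Gata2Venus. In these embryos an IRES-Venus cassette follows the coding sequence of *Gata2* and reports its transcription. The cells of both fractions therefore carried the same allele and were parted by Venus fluorescence, as an intermediate fraction (Vmed, 3 libraries) and a high fraction (Vhigh, 3 libraries). Whether the embryos behind a library were pooled is not given in the sources used here.

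The first blood stem cells of the embryo form from endothelial cells of the aorta, in clusters that bud into its lumen, and cells in the clusters carry both CD31 and ckit. The genes examined here encode DNA-binding proteins that act in and after this transition. *Myb* is required for definitive hematopoiesis, *Myc* and *Mycn* drive growth and ribosome production, *Mecom* and *Prdm16* are related zinc finger factors needed for stem cell maintenance, and *Meis1* works beside HOX proteins. *Hlf* encodes a PAR bZIP factor that marks stem cells, *Hhex* a homeobox factor of endothelium and early blood, and *Bcl11a* a zinc finger repressor known for silencing embryonic globin genes and for its need in lymphoid development.

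Gene totals ranged from 8296831 to 12035206 counts. A level of 3 counts, used in place of a count of 0, corresponded to 0.249 to 0.362 CPM, the counts of a gene relative to the gene total of its library. One library stood apart. Vhigh replicate 1 had a count on only 10427 genes, and of 7315 genes with at least 50 counts in each of the other 5 libraries it held 3 counts or fewer on 1067, against 0 to 81 genes for the other libraries. Results that rest on it are given again without it. The sort was checked on its own markers. *Kit* had 64.1, 207.5 and 59.1 CPM in Vmed replicates 1, 2 and 3, and 254.5, 490.3 and 520.8 CPM in Vhigh. *Gata2* had 50.3, 29.4 and 68.3 CPM in Vmed and 39.2, 82.5 and 142.2 CPM in Vhigh, with overlapping fractions. *Pecam1*, which encodes CD31, was detected in each library, at 118.0 to 569.5 CPM.

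Of the 9 genes, 3 separated the fractions completely, with each Vhigh library above each Vmed library: *Myb*, *Hlf* and *Mycn*. Over all 12688 genes tested the share was 4.15%, and *Hlf* was among those tested only through its Vhigh level. Without Vhigh replicate 1, *Myc*, *Bcl11a* and *Prdm16* were separated as well, which made 6 of the 9, against 11.7% of all genes tested. The promoters of the 3 genes separated over all libraries are shown. Each window runs from 250 bases before the annotated start to 20 bases after it, 270 bases in all, from RefSeq on GRCm38.p6, written 5′ to 3′ on the minus strand, on which these 3 genes lie. The *Myb* window is chr10:21160965-21161234, the *Hlf* window chr11:90390898-90391167 and the *Mycn* window chr12:12941817-12942086. Capitals mark TTTGGCGG and TTTGGCGC, forms of the E2F motif, and TGACGTCA, the cAMP response element.

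Myb: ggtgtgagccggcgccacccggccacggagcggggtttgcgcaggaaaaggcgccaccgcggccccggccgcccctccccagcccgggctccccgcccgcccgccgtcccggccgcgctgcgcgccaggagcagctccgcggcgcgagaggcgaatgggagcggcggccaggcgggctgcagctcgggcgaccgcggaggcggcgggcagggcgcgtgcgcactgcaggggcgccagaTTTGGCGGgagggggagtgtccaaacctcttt

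Hlf: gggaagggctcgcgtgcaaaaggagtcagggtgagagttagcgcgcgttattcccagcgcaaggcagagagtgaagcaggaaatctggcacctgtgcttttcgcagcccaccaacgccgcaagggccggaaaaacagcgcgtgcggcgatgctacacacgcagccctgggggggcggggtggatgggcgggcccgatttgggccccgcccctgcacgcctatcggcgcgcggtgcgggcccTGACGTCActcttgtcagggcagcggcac

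Mycn: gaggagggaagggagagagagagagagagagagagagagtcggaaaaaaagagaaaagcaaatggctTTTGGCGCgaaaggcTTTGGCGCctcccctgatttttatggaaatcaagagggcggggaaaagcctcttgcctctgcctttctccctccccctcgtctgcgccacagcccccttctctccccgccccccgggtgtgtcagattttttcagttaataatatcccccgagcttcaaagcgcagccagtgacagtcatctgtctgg

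The *Myb* window held TTTGGCGG, its first base 12 bases before the start. TTTGGCGC occurred at 183 and at 168 bases before the start of *Mycn*. The palindrome TGACGTCA began 9 bases before the start of *Hlf*. On either strand, TTTGGCGG was found in 0.484%, TTTGGCGC in 0.463% and TGACGTCA in 1.73% of 32851 windows of the same length, and these motifs were chosen after the windows had been read. Among the motifs set earlier, the GATA motif GATAA (23.8% of windows), the RUNX motif TGTGGT (15.1%), the ETS motif CGGAAG (15.4%) and the E-boxes CAGCTG (14.2%) and CACGTG (6.57%) were not in the 3 windows printed. TTTGGCGG was also in one window of *Mecom*, whose fractions overlapped, 9 bases before the start. GATAA was in both windows of *Mecom*, TGTGGT in the *Meis1* window, and CGGAAG in the *Meis1* window and in one *Mecom* window. GC content was 78.9% in the *Myb* window, 67.0% in *Hlf* and 54.4% in *Mycn*, against a median of 52.6% over all windows. A window was listed for 8 of the 9 genes. *Myc* had no entry. A match of letters is a description of the window and was not tested as a binding site.

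*Myb* occupies bases 21124935 to 21160984 of chromosome 10 (GRCm38, as for the positions of the other genes). It had 1.83, 1.33 and 5.97 CPM in Vmed replicates 1, 2 and 3, and 73.3, 198.5 and 104.3 CPM in Vhigh replicates 1, 2 and 3. The lowest Vhigh library was 12.3-fold above the highest Vmed library. The mean was 3.04 ± 2.55 CPM (SD, n = 3) in Vmed and 125.3 ± 65.2 CPM (SD, n = 3) in Vhigh, and the log2 fold change, Vhigh over Vmed, was 5.26 (standard error 0.81, 95% interval 3.46 to 7.07). Its p of 0.00026 ranked 5 among the 12688 genes tested by edgeR's quasi-likelihood test, and the Benjamini-Hochberg adjusted p was 0.66. Within pairs of libraries with the same replicate number, *Myb* was higher in Vhigh by 40.0-fold (95% counting interval 24.5 to 70.4), 149.7-fold (83.5 to 300.4) and 17.5-fold (13.4 to 23.1). The replicate numbers were taken to pair the libraries, from correlations between libraries and not from a stated pairing. With the number as a block, edgeR's likelihood ratio test gave *Myb* a log2 fold change of 5.48 and a Benjamini-Hochberg adjusted p of 0.00026. *Myb* passed the likelihood ratio test of edgeR without the block too (Benjamini-Hochberg adjusted p of 0.0022) and passed the quasi-likelihood test neither without nor with it (0.66 and 0.61). Without Vhigh replicate 1 the log2 fold change was 5.49 for *Myb*, and it was 5.62 for *Hlf*.

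*Hlf* occupies bases 90336536 to 90390895 of chromosome 11. It was near the limit of detection in Vmed, with 0.229, 2.53 and 0.515 CPM in replicates 1, 2 and 3 (2, 21 and 5 counts), and reached 50.7, 73.6 and 41.5 CPM in Vhigh (540, 799 and 499 counts). The fractions were 1.09 ± 1.26 CPM (SD, n = 3) and 55.2 ± 16.5 CPM (SD, n = 3) and did not overlap, the lowest Vhigh library being 16.4-fold above the highest Vmed library. Its fold change was 5.64 on the log2 scale (standard error 1.17, 95% interval 3.04 to 8.23), with p = 0.0024 and adjusted p = 0.9998 by edgeR's quasi-likelihood test and p = 0.1 by the exact permutation test. *Hlf* passed the filter on low counts through the Vhigh libraries, since only 1 Vmed library reached the 0.982 CPM that the filter asks for, so its place among the tested genes depended on being high in one fraction. The pairwise ratios were 221.4 (61.0 to 1833), 29.1 (18.9 to 47.2) and 80.6 (34.3 to 249.2). Blocking on the number, the likelihood ratio test of edgeR gave a log2 fold change of 6.17 and a Benjamini-Hochberg adjusted p of 0.0064, against 0.0501 without the block.

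**Figure D1:**
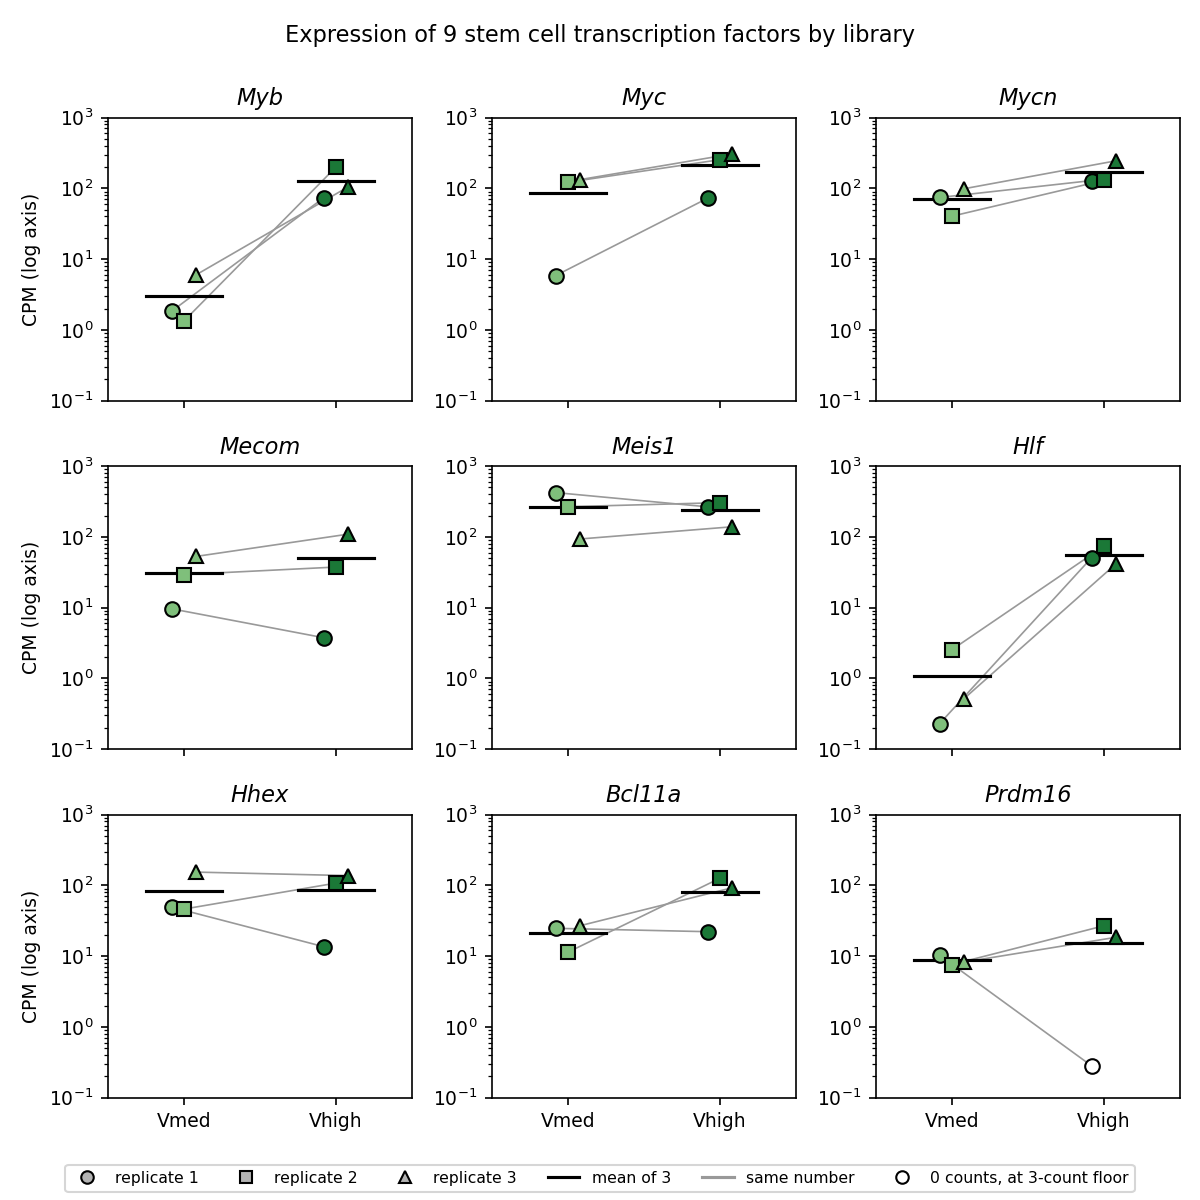
CPM of the 9 genes in each of the 6 libraries, on a log axis, with the marker shape giving the replicate number, grey lines joining libraries of the same number, a bar at the mean of each fraction and an open circle, placed at the level of 3 counts, for the library with 0 counts of *Prdm16*. *Myb* and *Hlf* stay at or below 5.97 and 2.53 CPM in Vmed and at or above 73.3 and 41.5 CPM in Vhigh, whereas *Meis1* and *Hhex* overlap.

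The MYC proteins bind E-boxes as partners of MAX. *Mycn*, on chromosome 12 from 12936093 to 12941914, had 74.1, 40.3 and 98.4 CPM in Vmed and 128.5, 129.3 and 244.3 CPM in Vhigh. The fractions did not overlap, but the distance between them was small beside that of *Myb* and *Hlf*. On the log2 scale the difference was 1.21 (standard error 0.59, 95% interval -0.11 to 2.52), which did not pass the threshold (p = 0.072 and adjusted p = 0.9998 by edgeR's quasi-likelihood test, exact permutation p = 0.1). *Mycn* was higher in Vhigh in 3 of 3 pairs, by 1.73-fold to 3.21-fold. In the blocked quasi-likelihood fit of edgeR its log2 fold change was 1.23 (standard error 0.36, Benjamini-Hochberg adjusted p = 0.99). In the fit without the block and without Vhigh replicate 1 the value was 1.32 (standard error 0.63).

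*Myc*, on chromosome 15 from 61985391 to 61990374, had 5.83, 121.7 and 132.4 CPM in Vmed and 72.3, 253.3 and 305.2 CPM in Vhigh. Vmed replicate 1 was far below the other libraries, and Vhigh replicate 1 was below Vmed replicates 2 and 3, so the fractions overlapped. Without Vhigh replicate 1 they did not, and the log2 fold change was then 1.62 (standard error 0.95). Over all 6 libraries it was 1.23 (standard error 0.92, 95% interval -0.81 to 3.28, adjusted p = 0.9998 by edgeR's quasi-likelihood test). Within pairs *Myc* was higher in Vhigh in 3 of 3, by 12.4-fold (95% counting interval 9.33 to 16.8) in pair 1 and by 2.08-fold and 2.31-fold in pairs 2 and 3.

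The balance between both MYC genes varied between replicates by more than it differed between fractions. *Mycn* gave 92.7% of their joint counts in Vmed replicate 1 (Wilson 95% interval 90.5 to 94.4), 24.9% in Vmed replicate 2 (22.6 to 27.2) and 42.6% in Vmed replicate 3 (40.6 to 44.7). In Vhigh the shares were 64.0% (61.9 to 66.0), 33.8% (32.4 to 35.2) and 44.5% (43.3 to 45.7). In both fractions replicate 1 held the largest *Mycn* share and replicate 2 the smallest. The log2 ratio of *Mycn* to *Myc* counts was 0.54 ± 2.76 (SD, n = 3) in Vmed and -0.15 ± 0.91 (SD, n = 3) in Vhigh, a difference of -0.70 (exact two-sided permutation test, p = 0.9, adjusted over 2 ratios 0.9).

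*Mecom* and *Prdm16* encode related zinc finger proteins with a PR domain. *Mecom*, on chromosome 3 from 29951296 to 30548008, had 9.61, 29.3 and 52.8 CPM in Vmed and 3.75, 37.4 and 108.9 CPM in Vhigh. In each fraction replicate 1 was the lowest and replicate 3 the highest, and the log2 fold change of 0.67 (standard error 1.19, 95% interval -1.97 to 3.31) was within the spread between replicates. Without Vhigh replicate 3 it was -0.67, and without Vhigh replicate 1 it was 1.22.

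*Prdm16*, on chromosome 4 from 154316125 to 154636873, had 10.3, 7.59 and 8.23 CPM in Vmed, the tightest group of any of these genes in either fraction relative to its mean. In Vhigh it had 0 counts in replicate 1 and 26.8 and 18.4 CPM in replicates 2 and 3. Against Vmed replicate 1, which held 90 counts, the level in Vhigh replicate 1 was at least 36.6-fold lower (3 counts in that library), while pairs 2 and 3 were higher in Vhigh by 3.53-fold and 2.24-fold. The log2 fold change was 0.67 (standard error 1.90, 95% interval -3.54 to 4.88) over all 6 libraries, 1.25 without Vhigh replicate 1, when the fractions no longer overlapped, and -0.16 in the blocked quasi-likelihood fit of edgeR. *Prdm16* gave 51.7%, 20.6% and 13.5% of the joint *Prdm16* and *Mecom* counts in Vmed (Wilson 95% intervals 44.3 to 59.0, 16.4 to 25.5 and 11.0 to 16.5). In Vhigh it gave 0% (0 to 8.76), 41.8% (38.1 to 45.4) and 14.5% (12.8 to 16.3). The difference between fractions in the log2 ratio was -1.62 (exact two-sided permutation test, p = 0.5, adjusted over 2 ratios 0.9). Without Vhigh replicate 1 that difference was -0.015.

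The fractions overlapped for both homeobox genes. *Meis1*, on chromosome 11 from 18879817 to 19018985, had 421.5, 266.1 and 93.2 CPM in Vmed and 265.2, 303.7 and 138.5 CPM in Vhigh. Replicate 3 was the lowest in both fractions. The log2 fold change was -0.19 (standard error 0.60, 95% interval -1.52 to 1.14), an interval that holds changes of either sign. Without Vhigh replicate 1 the fold change was -0.38. *Hhex*, on chromosome 19 from 37434810 to 37440731, had 49.3, 46.2 and 153.9 CPM in Vmed and 13.6, 107.5 and 137.3 CPM in Vhigh. Its log2 fold change was -0.03 (standard error 0.87, 95% interval -1.96 to 1.90). Without Vhigh replicate 1, its lowest library, the value was 0.47.

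*Bcl11a*, on chromosome 11 from 24078056 to 24174123, had 24.7, 11.3 and 26.9 CPM in Vmed and 22.1, 125.8 and 92.3 CPM in Vhigh. Pair 1 was level within counting error, with a ratio of 0.896 (95% counting interval 0.742 to 1.08), whereas pairs 2 and 3 were higher in Vhigh by 11.1-fold and 3.44-fold. Over all libraries the log2 fold change was 1.83 (standard error 0.87, 95% interval -0.11 to 3.77), with p = 0.069 and adjusted p = 0.9998 by edgeR's quasi-likelihood test and p = 0.3 by the exact permutation test. Without Vhigh replicate 1 the fractions did not overlap and the value was 2.25 (standard error 0.71), with p = 0.010 and adjusted p = 0.9998 by edgeR's quasi-likelihood test and p = 0.1, the smallest possible, by the exact permutation test.

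**Figure D2:**
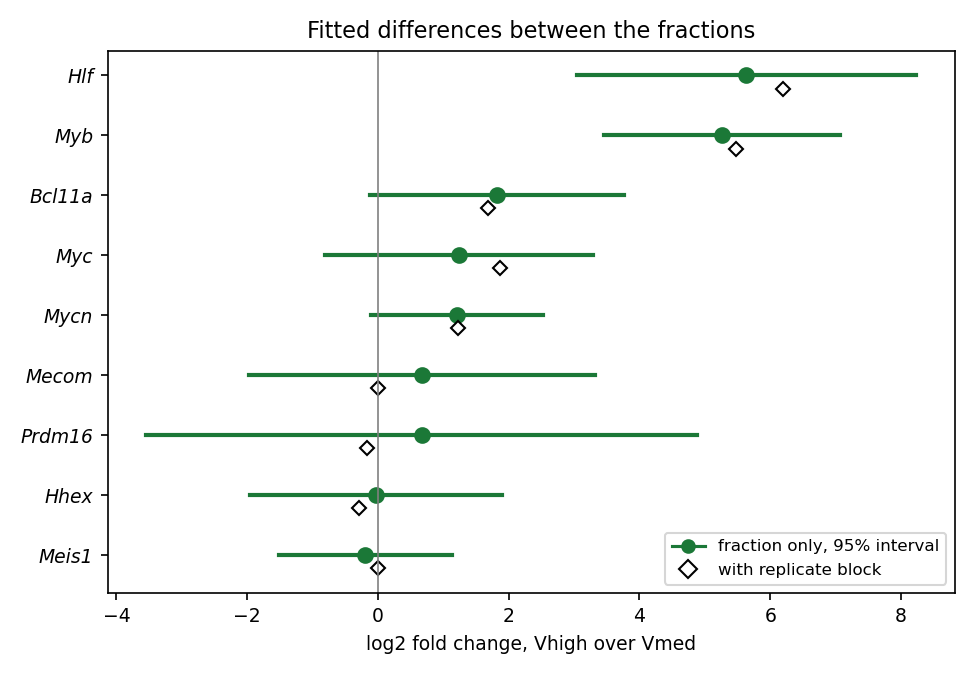
Log2 fold change of each gene (Vhigh over Vmed) with its 95% interval from edgeR's quasi-likelihood fit, (lines), and the value of the fit with a replicate block (open diamonds, no interval drawn). The intervals of *Myb* (3.46 to 7.07) and *Hlf* (3.04 to 8.23) lie above 0, and the other 7 hold 0.

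Counted over the 9 genes, 7 had a fold change above 0 and 2 below, against 48.9% above 0 among all 12688 genes tested. Their median log2 fold change was 1.21, against -0.02 for all genes tested. At an adjusted p under 0.05 in the quasi-likelihood test, 0 of the 9 genes were called, as were 0 genes and 0% of all those tested. In that test 259 of the 12688 genes had an unadjusted p under 0.05, a smaller share than the 0.05 expected if no gene differed. DESeq2 called 51 genes, *Myb* and *Hlf* among them. An unadjusted p under 0.05 with a higher level in Vhigh was found for 2 of the 9, *Myb* and *Hlf*, against 0.867% of all genes. With the replicate block it was found for 4 of the 9, *Myb*, *Hlf*, *Myc* and *Mycn*, against 1.8%, and without Vhigh replicate 1 for 3 of the 9, *Myb*, *Hlf* and *Bcl11a*, against 1.19%. Complete separation with Vhigh above was found for 3 of the 9, against 4.15% of all genes, and without Vhigh replicate 1 for 6 of the 9, against 11.7%. A higher level in Vhigh in all 3 pairs was found for 4 of the 9, *Myb*, *Hlf*, *Myc* and *Mycn*, against 15.2%. The likelihood ratio test with the replicate block called 2 of the 9, *Myb* and *Hlf*, higher in Vhigh, against 0.205% of all genes. *Hlf* entered these counts through a filter that its Vhigh level alone met, and of the 8 genes without it the counts were, in the same order, 1, 3, 2, 2, 5, 3 and 1. The exact two-sided permutation test of single genes gave p = 0.1 for *Myb*, *Hlf* and *Mycn*, the smallest that 3 libraries against 3 allow, p = 0.3 for *Myc* and *Bcl11a*, and 0.8 or more for the other 4 genes. In these bulk samples, fewer cells that express a gene and less RNA of it per cell cannot be told apart.

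**Figure D3:**
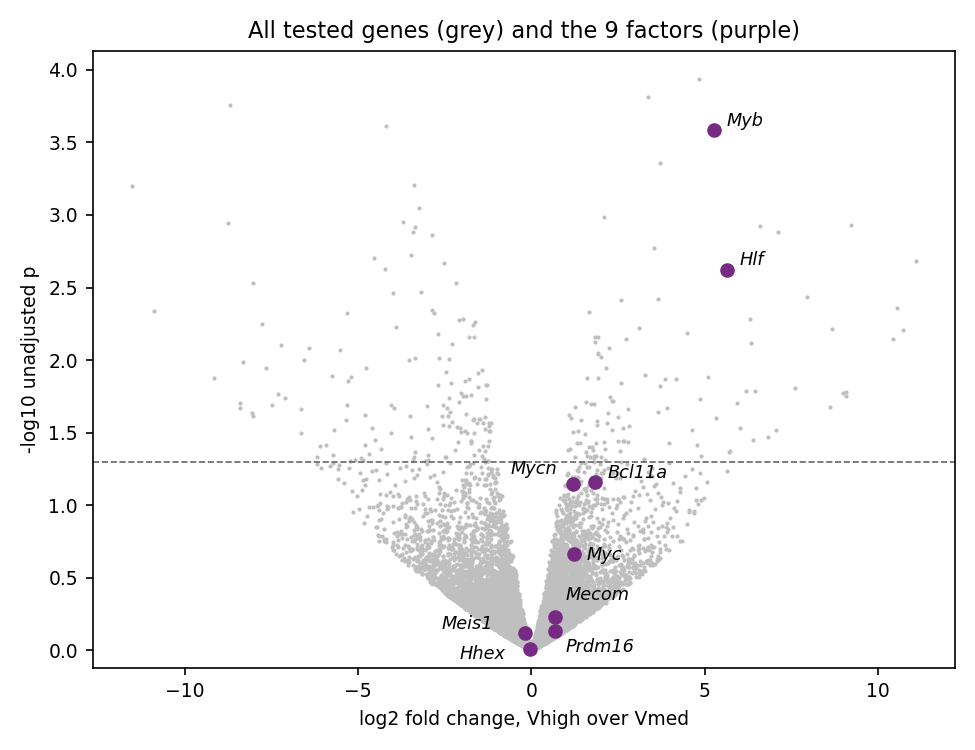
Negative log10 of the unadjusted p from edgeR's quasi-likelihood test against the log2 fold change (Vhigh over Vmed) for the 12688 tested genes in grey, with the 9 genes in purple and a dashed line at the threshold of 0.05. *Myb* (5.26) and *Hlf* (5.64) lie above the line, and the other 7 genes lie below it with fold changes between -0.19 and 1.83.

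Levels were compared between genes per kilobase of exon, as RPKM. In Vmed the order of the means was *Myc* (31.9), *Meis1* (24.7), *Mycn* (21.5), *Hhex* (16.4), *Mecom* (2.46), *Bcl11a* (1.59), *Prdm16* (0.934), *Myb* (0.341) and *Hlf* (0.163). In Vhigh it was *Myc* (77.4), *Mycn* (50.8), *Meis1* (22.4), *Hhex* (17.0), *Myb* (14.0), *Hlf* (8.27), *Bcl11a* (6.08), *Mecom* (4.03) and *Prdm16* (1.62). *Myb* and *Hlf*, the lowest in Vmed, ranked 5 and 6 in Vhigh. The 4 highest genes were the same in both fractions. Most neighbours in these orders overlapped between libraries, such as *Myc* (2.15 to 48.7 RPKM) and *Meis1* (8.84 to 40.0 RPKM) in Vmed. Without overlap were *Hhex* over *Mecom* and *Prdm16* over *Myb* in Vmed, and *Mycn* (39.0 to 74.1 RPKM) over *Meis1* (13.2 to 28.8 RPKM) in Vhigh. Among the tested genes ranked by RPKM within a library, *Myb* lay between the percentiles 5.16 and 16.0 in Vmed and between 63.9 and 78.9 in Vhigh, and *Hlf* between 8.15 and 9.88 in Vmed and between 49.4 and 64.4 in Vhigh. Summed over the 9 genes the level was 78.4, 96.0 and 125.8 RPKM in Vmed and 111.3, 231.2 and 262.4 RPKM in Vhigh.

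**Figure D4:**
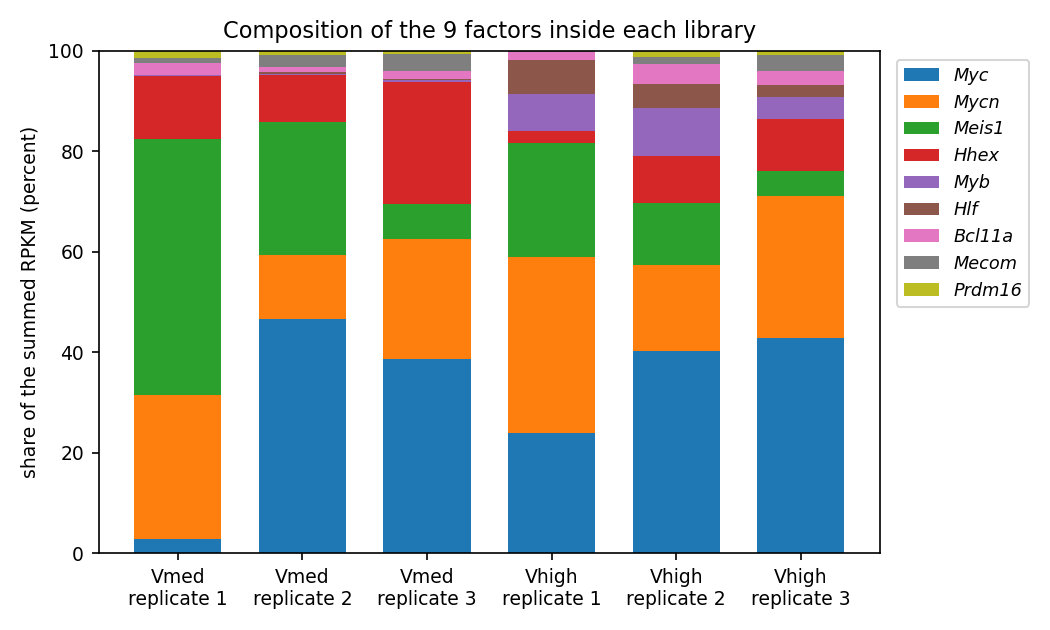
Share of each gene in the summed RPKM of the 9 genes, in percent, with 1 stacked bar for each library. *Myb* and *Hlf* take 4.45 to 9.61% and 2.37 to 6.81% in Vhigh but at most 0.531% and 0.395% in Vmed, and *Meis1* takes 51.0% in Vmed replicate 1, where *Myc* takes 2.74%.

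Exons of *Myb*, *Mecom*, *Meis1*, *Bcl11a* and *Prdm16* overlap exons of other GENCODE genes, on the opposite strand except for one of the 2 that overlap *Meis1*. For *Myb* 559 bases are shared with Gm26577, out of 8933. Those other genes were not counted under these names in the files, and whether counting used strand is not given in the sources used here, so reads from both partners cannot be told apart there. *Hlf*, *Myc*, *Mycn* and *Hhex* share no exon base with another gene.

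The libraries also differed in genes of other cell types, and those values stand beside *Myb* and *Hlf* here. Among all genes tested, 48.9% lay above 0 in log2 fold change, and the share separated with Vhigh below was not counted. Macrophage genes summed to 1758, 1024 and 1013 CPM in Vmed and to 506.4, 142.0 and 147.9 CPM in Vhigh, with 10 of 10 below 0 in log2 fold change. Mesenchymal genes summed to 2049, 4476 and 5195 CPM in Vmed and to 652.1, 623.9 and 366.4 CPM in Vhigh, with 9 of 10 below 0. Endothelial genes, 9 of 10 below 0, summed to 1291 to 4475 CPM in Vmed and 1037 to 3087 CPM in Vhigh. Genes of hematopoietic cluster cells, 9 of 11 above 0, summed to 686.2 to 2109 CPM in Vmed and 1369 to 4238 CPM in Vhigh. No gene of these 4 lists was at 0 in all libraries. Erythroid genes summed to 188.4 to 601.7 CPM in Vmed and 100.8 to 233.4 CPM in Vhigh, with *Hba-a1* and *Hba-a2* at 0 in all libraries, and mast cell genes to 27.7 to 60.2 and 39.3 to 137.4 CPM, with *Mcpt4* and *Cma1* at 0. Megakaryocyte genes, 7 of 10 below 0, summed to 472.9 to 1140 CPM in Vmed and 308.4 to 572.0 CPM in Vhigh, 4 of them separated with Vhigh below, among them *Pf4* (log2 fold change -2.56). Neural and epithelial genes, 8 of 9 tested below 0, summed to 238.3 to 271.5 CPM in Vmed and 91.4 to 159.4 CPM in Vhigh. Also separated with Vhigh below were 6 macrophage, 6 mesenchymal, 1 endothelial, 1 erythroid and 1 neural or epithelial gene. The part of these shifts in the results of *Myb*, *Hlf* and *Mycn* was not tested.

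Because *Kit* itself was higher in Vhigh, the 3 separated genes were also expressed per 100 *Kit* counts of the same library, a choice made after the data were seen. Per 100 *Kit* counts, *Myb* had 2.86, 0.639 and 10.1 counts in Vmed and 28.8, 40.5 and 20.02 in Vhigh. *Hlf* had 0.357, 1.22 and 0.871 counts in Vmed and 19.9, 15.0 and 7.96 in Vhigh on this scale. Both stayed separated, with log2 differences of 3.40 and 4.04 (exact two-sided permutation test, p = 0.1 for each, the smallest possible). *Mycn* did not: it had 115.7, 19.4 and 166.6 counts per 100 *Kit* counts in Vmed and 50.5, 26.4 and 46.9 in Vhigh, and the log2 difference of -0.86 had the opposite sign to its CPM (exact two-sided permutation test, p = 0.5). Per count of *Runx1*, *Ptprc* or *Cd34*, the log2 difference was 3.10, 4.69 and 4.78 for *Myb* and 3.75, 5.33 and 5.43 for *Hlf*, separated each time. For *Mycn* it was -1.16, 0.43 and 0.53, with overlap each time. These are 12 ratios over the same 6 libraries, and none can give a p below 0.1. The 3 genes were chosen for their separation in these libraries, so the ratios and their p-values are descriptions and no further test of it.

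**Figure D5:**
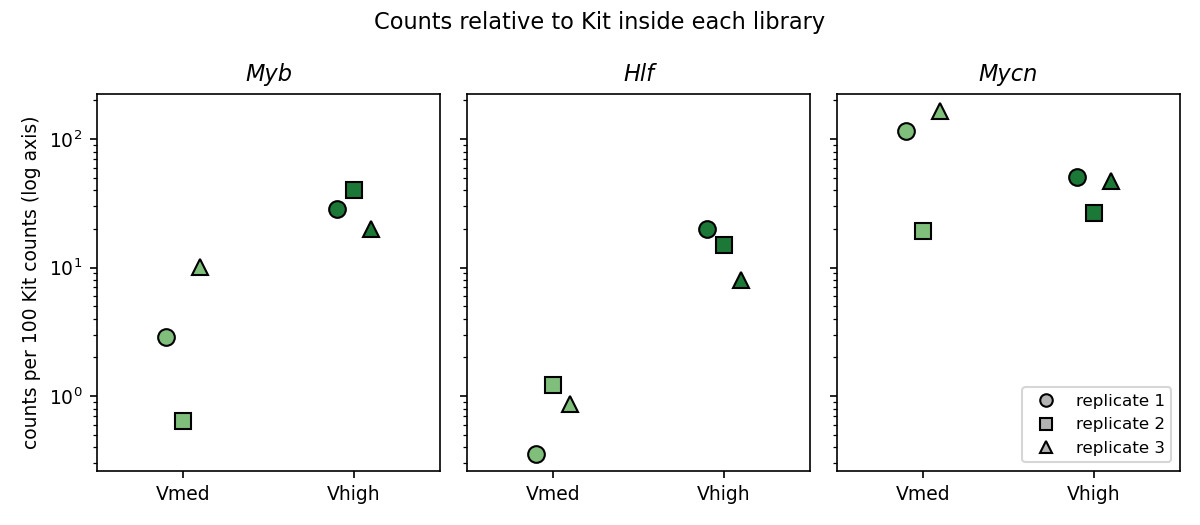
Counts of *Myb*, *Hlf* and *Mycn* per 100 *Kit* counts in each library, on a log axis, with the marker shape giving the replicate number. *Myb* (at most 10.1 in Vmed, at least 20.02 in Vhigh) and *Hlf* (at most 1.22, at least 7.96) stay separated, and *Mycn* overlaps.

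Partners and targets of these factors were followed as lists written from general knowledge. For comparison, 48.9% of all genes tested lay above 0, and 4.15% were separated with Vhigh above. An unadjusted p under 0.05 in edgeR's quasi-likelihood test with a higher level in Vhigh was found for 0.867%. The share separated with Vhigh below was not counted over all genes. None of their genes passed an adjusted p of 0.05 in edgeR's quasi-likelihood test. Of 12 relatives, cofactors and targets of MYB, 8 lay above 0 and 2 had an unadjusted p under 0.05, both higher in Vhigh. These were genes of granule proteins of myeloid cells: *Prtn3*, with 23.3, 26.9 and 20.3 CPM in Vmed and 125.6, 133.0 and 62.1 CPM in Vhigh (log2 fold change 2.15), and *Mpo*, with 272.3, 492.7 and 311.1 CPM in Vmed and 584.4, 1130 and 747.9 CPM in Vhigh (1.14). *Elane*, another granule protease gene, was at 39.4 CPM in Vhigh replicate 1 and at most 2.88 CPM in the other libraries. The median log2 fold change of the list was 0.58.

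Of 18 MYC target genes, 15 lay above 0, with a median of 0.59, and *Nop58*, a ribosomal RNA processing gene, had an unadjusted p under 0.05 with a log2 fold change of 1.11. *Nop58* had 267.8, 263.0 and 490.8 CPM in Vmed and 957.2, 690.3 and 584.3 CPM in Vhigh. The 18 genes summed to 8277, 8212 and 8786 CPM in Vmed and to 13656, 11883 and 11070 CPM in Vhigh, without overlap. Of the 18 genes, 3 were separated with Vhigh above, *Nop58*, *Tfrc* and *Nolc1*. *Npm1* and *Ncl*, 2 of the most abundant, overlapped. The polyamine synthesis gene *Odc1* went the other way, at -1.02 (standard error 0.99), with overlap. It had 61.7, 34.1 and 95.6 CPM in Vmed and 4.32, 37.8 and 57.7 CPM in Vhigh, lowest in Vhigh replicate 1. Among the 10 MAX network partners 5 lay above and 5 below 0, with a median of 0.060.

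Of 15 genes listed for MEIS1, all but *Trib2* of the HOX and TALE families, 14 were tested. Of those tested, 9 lay below 0, with a median of -0.66. *Hoxa9* was separated with Vhigh above, at 5.95, 17.1 and 32.4 CPM in Vmed and 103.2, 41.6 and 44.5 CPM in Vhigh (log2 fold change 1.79, standard error 0.96). In all 2 genes of the list were separated with Vhigh above, the other being *Pknox1*, and 3 with Vhigh below. Of these, *Meis2* had 121.7, 51.8 and 63.2 CPM in Vmed and 0.563, 49.5 and 27.3 CPM in Vhigh (log2 fold change -1.75, standard error 1.16). *Hoxb3* and *Hoxb4* were at low levels: *Hoxb3* had 3.43 to 6.99 CPM in Vmed and 0 to 1.84 CPM in Vhigh, and *Hoxb4* had 2.41 to 6.18 CPM and 0 to 1.84 CPM. Of 11 partners and target genes of HHEX, 10 were tested and 6 lay below 0, with a median of -0.30. *Nrp1*, which encodes a VEGF co-receptor of endothelium, had 577.8, 785.5 and 652.8 CPM in Vmed and 44.6, 221.2 and 231.7 CPM in Vhigh (log2 fold change -2.09), the one gene of that list with an unadjusted p under 0.05.

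In the PRDM family and its methyltransferase partners, 7 of the 14 tested genes lay on each side of 0. *Setdb1*, a histone methyltransferase gene, was separated with 20.4, 53.9 and 29.0 CPM in Vmed and 132.7, 131.8 and 101.2 CPM in Vhigh (log2 fold change 1.81). For *Prdm15* the value was 2.23 (standard error 1.57), with overlap. Of 13 genes for the paralog *Bcl11b* and for NuRD and SIN3 partners of BCL11A, 8 lay above 0. *Gatad2a*, a NuRD subunit gene, had 60.5, 115.3 and 93.1 CPM in Vmed and 309.0, 210.8 and 156.0 CPM in Vhigh (log2 fold change 1.33). Among the relatives of *Hlf*, *Tef* and *Nfil3* had log2 fold changes of 0.96 and -0.26 with standard errors of 1.78 and 2.31, and *Dbp* was too low to be tested. No test was run on a list as such.

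Genes with the pattern most like that of a member were taken as those with the smallest root mean square difference in mean-centred log2 CPM over the 6 libraries, among 10928 genes with a mean of at least 5 CPM. For *Myb* the nearest was *Angpt1*, which encodes a ligand of the TIE2 receptor, with 11.0, 2.41 and 10.2 CPM in Vmed and 311.2, 234.3 and 142.3 CPM in Vhigh (difference 0.84), followed by *A630072M18Rik* (0.85). For *Hlf* they were *Vamp1* (0.65) and *Il12a* (0.68), and *Il12a* had 0, 0.362 and 0 CPM in Vmed and 43.2, 40.3 and 12.6 CPM in Vhigh. The difference was smaller for the other 7 genes: 0.27 for *Myc* with *Top3b*, 0.22 for *Mycn* with *Limd2*, 0.25 for *Mecom* with *Pdk1*, 0.12 for *Meis1* with *Eif4e*, 0.19 for *Hhex* with *Fam172a*, 0.28 for *Bcl11a* with *Mfng* and 0.12 for *Prdm16* with *Pdgfb*. Some of these matches share a low library. *Prdm16* and *Pdgfb* were lowest in Vhigh replicate 1, at 0 and 0.094 CPM, as were *Mecom* with *Pdk1* and *Hhex* with *Fam172a*. *Myc* and *Top3b* were lowest in Vmed replicate 1, and *Mycn*, *Meis1* and *Bcl11a* in other libraries. The search was not repeated without Vhigh replicate 1. With 6 libraries these are descriptions of likeness only.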

How the data were processed

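RNA was prepared with the mirVana kit and amplified by the SMARTer protocol, and single reads of 50 bases were sequenced. The authors aligned them to GRCm38/mm10, and the submitters' processing notes name TopHat, Bowtie 1.1.2 and HTSeq. They deposited raw counts per gene for each library, without normalization. The annotation and the strand setting are not given in the sources used here. Lines for reads assigned to no gene (55.0% to 77.2% of a library's total) were left out of library sizes and tests.

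Libraries were grouped by their labels, and the study describes 3 independent experiments. CPM were taken from gene totals. Genes were kept by filterByExpr (12688 of 24062), scaled by TMM and tested by edgeR 4.0.16 (R 4.3.3), with the quasi-likelihood test on the fraction alone and adjustment by Benjamini-Hochberg at 0.05. The script was checked on simulated data. The biological coefficient of variation was 1.16. Permutation tests enumerated all 20 arrangements of log2(CPM + 0.5). RPKM used exon-union lengths of GENCODE vM21. Ratio intervals are exact conditional binomial intervals. Intervals of pair ratios and of count shares, and the limit for *Prdm16*, cover counting error only, as reads carry no molecular identifiers. Intervals of fitted log2 fold changes also cover the spread between libraries.

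The replicate numbers come from the titles, which do not state a pairing. Deviations from the fraction means correlated at 0.21, 0.21 and 0.39 in same-numbered pairs and at -0.0061 or below in the others. Subtracting the means partly forces the latter below 0 when the former are above it. The numbers were taken to pair the libraries from these correlations, which come from the same data as the blocked fits. Alternatives were other normalizations, filters and tests (DESeq2 1.42.0), the replicate block, other pseudocounts, and each library left out. Counts of separated genes without Vhigh replicate 1, and counts without *Hlf*, were added after seeing the data. The 9 genes, the lists and the rule for named genes were chosen with earlier results of these data known. That rule named, in each list, up to 4 genes of largest fold change and any with an unadjusted p under 0.05, from which examples are given, and the 2 genes most like each of the 9.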

Additional observations from a re-analysis of the deposited data

How the results depend on the processing

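The count of genes past the threshold, 0 in the quasi-likelihood test, was 37 without a filter on low counts, 21 with the likelihood ratio test, 51 with DESeq2 and 74 with the likelihood ratio test and a replicate block. It was 0 to 1 with one library left out, the 1 gene appearing without Vhigh replicate 1. The quasi-likelihood test with a replicate block gave 0, and within the likelihood ratio test the block changed the call of *Hlf* and of no other of the 9 genes. *Myb* passed under those 4 alternatives, at adjusted p between 1.24e-06 and 0.0047, and *Hlf* under DESeq2 and the blocked likelihood ratio test only. The log2 fold change lay between 4.89 and 6.21 for *Myb* and between 5.17 and 7.11 for *Hlf* with one library left out. Of 301 alternative values of 22 results, 262 were labelled the same, 15 stronger and 24 changed in sign. The 15 are counts of genes past the threshold that rose, and fits of *Myb* and *Hlf* that newly passed it. Fitted fold changes were judged by sign and by side of the threshold. Differences of mean log2 CPM and ratios were judged by sign alone.

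The sign changes concern the genes with overlapping fractions, and *Mycn* where it is set against another gene. Fitted log2 fold changes ranged over -0.67 to 1.36 for *Mecom*, -0.60 to 0.40 for *Meis1*, -0.57 to 0.78 for *Hhex* and -0.0097 to 1.25 for *Prdm16* with one library left out. *Hhex* was at 0.055 with library size only, *Prdm16* at -0.16 and -0.17 in the quasi-likelihood and likelihood ratio tests with a replicate block, and *Meis1* and *Hhex* at 0.21 and 0.21 without both libraries numbered 1, a choice added after seeing the data. Differences of mean log2 CPM ranged over -0.99 to 1.35 for *Mecom*, -0.58 to 0.50 for *Meis1*, -0.86 to 0.78 for *Hhex* and -1.57 to 1.32 for *Prdm16* with one library left out, against 0.045, 0.031, -0.26 and -0.52 over all libraries. *Meis1* was at -0.0019 with TMM-adjusted CPM. The log2 ratio of *Mycn* to *Myc* differed by -1.77 to 0.86 with one library left out, positive without Vmed replicate 1. *Mycn* was at -0.86 per *Kit* count and -1.16 per *Runx1* count. The cause was not tested. The depth limits *Hlf* and *Myb* in Vmed, where few counts stand behind each ratio, and 3 libraries per fraction limit the rest.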
